A study of Drosophila melanogaster with 8 samples.

Results

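Genes with many recorded 3′ ends were followed in synaptosomes and in the head homogenate from which they were isolated. Each row of the table of 3′-end counts is 1 cluster of reads of a gene, called an end here. A gene was taken when the table held 6 or more rows for it. This gave 220 genes with 1573 ends, of 10669 genes with 20177 ends in all. For comparison, 4838 genes had 2 to 5 ends (12993 ends) and 5611 genes had a single end. The choice used only the number of rows. Per the study's methods, clusters were built around peaks that passed a minimum read depth in a sample. The choice was thus not free of measured counts. However, 158 of the 1573 rows had no count in any library used here, and 250 had counts in only 1 library.

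The study profiled 3′ ends of polyadenylated RNA to ask whether 3′ UTR isoforms of 1 gene are found in different parts of a neuron. The 4 synaptosome libraries came from the synaptic layers of a Percoll gradient, which hold pinched-off nerve terminals and often adjoining postsynaptic membrane. The 4 input libraries came from the strained head homogenate, taken before the centrifugation steps whose final pellet went onto that gradient. All flies carried the genotype labelled wt, and per the study's methods they were 3-day-old w1118 adults, collected in bulk so that a library pools many heads. The labels describe snap-frozen flies and the methods fresh heads, and this difference could not be settled. Libraries 1 to 3 of each group carried a number that matched a sample title, whereas the remaining count column of each group was named only old, and it was used as a library of its group without a number.

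Most animal genes can end their mRNA at more than 1 place. The cleavage and polyadenylation machinery recognizes a signal in the nascent RNA, cuts it and adds the poly(A) tail, so a gene with several signals makes several mRNAs. Ends within 1 terminal exon give 3′ UTRs of different length around the same coding region, whereas ends in introns or in alternative last exons also change the protein. Neurons of flies are known for long 3′ UTRs, which hold binding sites for RNA-binding proteins and microRNAs that set where an mRNA is kept, translated or degraded.

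Libraries held 1029666 to 9397652 counts in synaptosomes and 7940909 to 16865581 in input, so the synaptosome side was the shallower and the less even. Ends of the 220 genes took 4.89 to 7.47% of the counts of a synaptosome library and 6.08 to 7.13% of an input library. Of the 1573 ends, 421 to 669 (26.8 to 42.5%) had a count in a synaptosome library and 930 to 1205 (59.1 to 76.6%) in an input library. Marker lists of 5 genes each, summed as CPM (counts scaled to a library total of 1000000), read 1383 to 1804 in synaptosomes against 9723 to 19977 in input for photoreceptors, 56.7 to 253 against 94.6 to 493 for neurons, 1365 to 3892 against 1373 to 2744 for glia, 858 to 2533 against 2161 to 7604 for muscle and 844 to 11568 against 2952 to 9802 for fat body, with the top value of 11568 in synaptosome old. One of the 5 neuron markers was at 0 in 3 synaptosome libraries. The part of these differences in the results below was not tested.

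**Figure D1:**
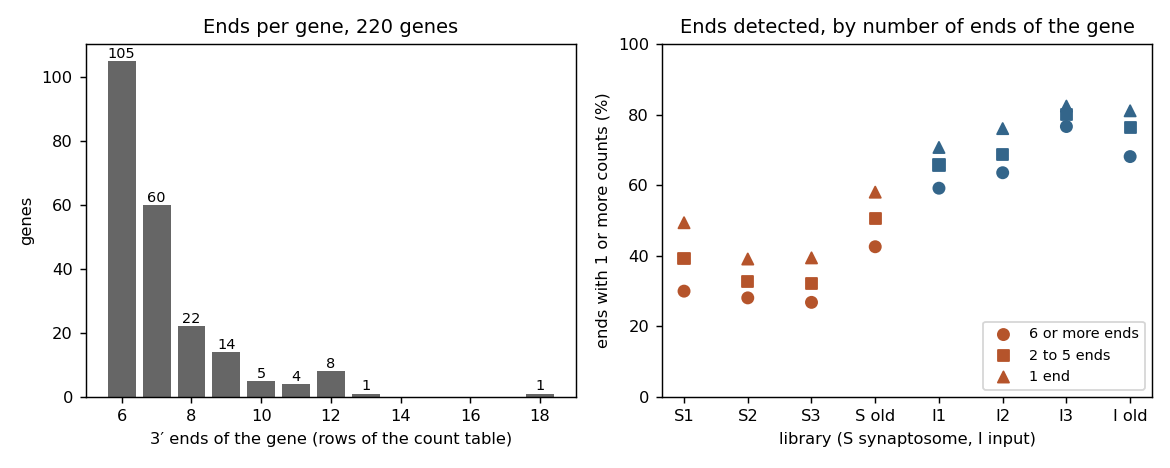
Left, number of genes (y axis) by number of 3′ ends (x axis) for the 220 genes, of which 105 had 6 ends and 1 had 18. Right, percentage of ends with 1 or more counts in each library, for genes with 6 or more, 2 to 5 and 1 end, with synaptosome libraries in orange and input libraries in blue. Every input library detected a larger share than every synaptosome library in each class.

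The number of ends fell off steeply above the threshold. There were 105 genes with 6 ends, 60 with 7, 22 with 8, 14 with 9, 5 with 10, 4 with 11 and 8 with 12, then Ald1 with 13 and lola with 18. Genes just outside the threshold, with 5 ends, numbered 256. Of these, 134 had 20 or more counts in every library, and their median chance that 2 reads share an end, a measure explained below, was 0.578 in input and 0.738 in synaptosomes, while the 61 such genes just inside it, with 6 ends, had 0.571 and 0.715.

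The 220 genes had more annotated room for alternative ends than genes with 2 to 5 ends. The deposited list of known 3′ ends held a median of 10 for them, 2382 in total, against a median of 5, and these ends spanned a median of 3314.5 bases against 1314.5. They were longer (median gene length 5374 against 3023 bases), had more annotated transcripts (median 4 against 2) and longer 3′ UTRs (median of the longest 3′ UTR block 978 against 394 bases). Of their known ends, 60.7% lay in an annotated 3′ UTR against 43.0%, and 8.35% lay in an intron against 5.23%. A single 3′ UTR block was annotated for 163 genes (75.1%), against 87.3% of genes with 2 to 5 ends. All but 1 of the 217 genes found in the annotation were protein-coding, the exception being the pseudogene CR42722. The count table numbers the ends of a gene without coordinates, and for 35 genes (15.9%) it held more rows than the list of known ends. A row is thus not always a separate known end, and no end was placed as proximal or distal.

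By chromosome, the small 4th chromosome, which is largely heterochromatic, stood apart. Of its 83 genes in the table, 9 (10.8%) had 6 or more ends, against 1.28 to 2.27% on the X and the 4 large autosome arms. These 9 were CaMKI and CaMKII, which encode calcium/calmodulin-dependent kinases, unc-13, which primes synaptic vesicles for release, the ephrin receptor Eph, the cadherin-like Cals, gw, a partner of Argonaute in microRNA silencing, pan, the transcription factor of the Wnt pathway, the plasma membrane calcium pump PMCA and the transcription factor Mitf. They held 6 (pan) to 10 (gw) ends each. No test was made of this count.

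Having many rows did not mean that many ends carried counts. The spread of a gene over its ends was measured as the same-end probability. This is the chance that 2 different reads of the gene, drawn from 1 library, mark the same end. It is 1 when all reads lie at 1 end and, for independent reads, does not shift with depth. Reads carry no molecular identifiers, so their independence could not be checked, also not by thinning. The probability was taken over the 138 genes with at least 20 counts in every library (82 genes had fewer). In input, the mean over libraries ran from 0.115 to 0.998 with a median of 0.545, above 0.9 in 18 genes and below 0.3 in 14. By the mean share of the counts in input, 24 genes had 1 end above 5%, 38 had 2, 46 had 3 and 30 had 4 or more, with at most 9. The dominant end, the one with the highest mean share, took over 90% in 27 genes and under 50% in 37.

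The gene with the most ends was also the one most evenly spread. lola encodes BTB zinc-finger transcription factors that guide axons, and its many protein isoforms use alternative last exons. Its 18 ends (of 42 known) were all seen in input, at gene counts of 834, 633, 1289 and 949, with same-end probabilities of 0.116, 0.10, 0.120 and 0.125. Its leading end in input, number 92, held 11.8, 14.4, 23.5 and 14.9% of counts, and end 24 followed with a mean of 13.7%. In synaptosomes, with 201, 63, 132 and 560 counts, 8 of the ends were seen and the probability was 0.219, 0.382, 0.375 and 0.399. Every synaptosome library lay above every input library, and which end led differed among them: number 24 held 32.3% in library 1, number 69 held 52.4 and 50.8% in libraries 2 and 3, and number 15 held 59.5% in old, where it had 333 counts against none in the other synaptosome libraries.

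Among the other genes with the most ends, Ald1 was concentrated on 1 end, Mf and alphaSnap were spread over several, and 14-3-3epsilon had 1 leading end in input. Ald1 (3R 26254069 to 26261591), the glycolytic enzyme aldolase, had all 13 ends in input, yet end 4 alone held 89.3, 88.3, 89.5 and 85.9% of input counts and 94.7, 97.1, 96.4 and 76.6% of synaptosome counts. Only synaptosome old was low, and there ends 11 and 1 held 11.9 and 8.2%. Mf (3R 15170625 to 15181510), which encodes the muscle thick filament protein myofilin, had 12 ends, and its pattern followed the libraries named old rather than the fraction. Its end 10 held 48.0% in synaptosome old and 48.7% in input old, against 0 to 11.6% in the other synaptosome and 1.9 to 5.4% in the other input libraries, while end 5 held 9.4 and 13.7% in both old libraries and 46.0 to 82.1% in the other 6.

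alphaSnap (3L 20313632 to 20316577), the adaptor with which NSF takes apart SNARE complexes after vesicle fusion, had the next lowest same-end probability after lola among the 138 genes. Its 12 ends gave 0.171 ± 0.013 in input and 0.388 ± 0.049 in synaptosomes (mean ± SD, n = 4 libraries per group, as for all means given here). End 6 held 53.0, 46.0, 58.1 and 64.9% of synaptosome counts and 17.5, 10.4, 13.8 and 26.6% of input counts. End 14, the first in input by mean share, held 2.3, 22.1, 0 and 7.9% against 22.4, 25.0, 29.2 and 20.9%. For end 6 every synaptosome library was above every input library, whereas for end 14 synaptosome 2 lay inside the input range, and the test of end usage, described below, gave an adjusted p of 0.22.

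14-3-3epsilon (3R 18242531 to 18250550), an adaptor that binds phosphorylated proteins, led with end 1 in input at 66.7 to 76.4%, while in synaptosomes this end held 59.8, 51.9 and 78.9% in libraries 1 to 3 and 9.3% in old. sqd, an RNA-binding protein of the hnRNP family, used 2 main ends, 49 and 40, at 57.1 ± 5.68 and 33.2 ± 7.80% in input and 51.8 ± 24.2 and 43.6 ± 19.3% in synaptosomes. The chromatin insulator gene mod(mdg4), whose isoforms also differ at their 3′ side, spread over its ends in input with a same-end probability of 0.189 ± 0.020, but 1 synaptosome library held only 19 counts. vig, a component of the RNA silencing complex, lost and CycB, the mitotic cyclin, had 0 counts in 1 synaptosome library each, so that their shares there could not be compared.

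Acsl, a long-chain acyl-CoA synthetase, CaMKI (4 445504 to 453947), Ace (3R 13222951 to 13259517), the acetylcholinesterase that ends cholinergic transmission, and Stim (X 15934495 to 15940451), the calcium sensor of the endoplasmic reticulum, completed the genes with the lowest same-end probability in input. Their means were 0.238, 0.239, 0.248 and 0.260 in input and 0.360, 0.275, 0.734 and 0.462 in synaptosomes. For CaMKI the groups overlapped, with 0.190 to 0.274 in input and 0.223 to 0.375 in synaptosomes. Ace did not overlap, since 2 synaptosome libraries had all of their 105 and 62 counts at end 10 (probability 1) and the others stood at 0.530 and 0.404, against 0.227 to 0.269 in input. These libraries held 62 to 235 counts of Ace, where input held 417 to 1106.

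At the other extreme were genes of the ribosome and glycolysis. RpS25, RpS4, RpS30, RpL30 and RpS3, ribosomal proteins, and Gapdh2, the glycolytic glyceraldehyde-3-phosphate dehydrogenase, had the highest same-end probabilities in input, 0.978 to 0.998. RpS25 (3R 11215028 to 11216287) shows how such a gene came to have many rows. Its end 0 held 21563, 25538, 35234 and 48188 of its 21575, 25570, 35265 and 48212 input counts, so that the other 6 ends were seen only as traces. In synaptosomes end 0 held 30324, 3986, 6067 and 25659 counts, with 7 counts at end 3 in library 3 and none elsewhere.

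Among the 138 genes, those with 9 or more ends were the most spread in input, without a steady order below that. The median same-end probability was 0.571 for 61 genes with 6 ends, 0.557 for 40 with 7, 0.624 for 14 with 8 and 0.482 for 23 with 9 or more. It was 0.565 for 95 genes with 1 annotated 3′ UTR block and 0.497 for 39 with 2 or more. The number of ends bounds this measure from below, so these medians are descriptions.

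Synaptosome libraries concentrated the reads of these genes on fewer ends than input libraries. Over the 138 genes, the median same-end probability was 0.762, 0.653, 0.649 and 0.563 in synaptosome libraries 1, 2, 3 and old and 0.524, 0.562, 0.550 and 0.515 in the input libraries in the same order. All 4 synaptosome libraries lay above all 4 input libraries, although synaptosome old did so by the margin between 0.563 and 0.562. This separation was lost with every gene thinned to 20 counts, with at least 50 counts required in every library and for genes with 8 or more ends, where the group means still differed by 0.105, 0.0663 and 0.0986. The group means were 0.657 ± 0.0814 and 0.538 ± 0.0221. The share of the top end read 86.6, 78.5, 78.7 and 72.2% against 66.7, 71.6, 71.4 and 66.8%. A gene showed 2.92 ± 0.513 of its ends in a synaptosome library and 5.27 ± 0.485 in an input library, and 5 to 24 of the 138 genes were reduced to a single end in a synaptosome library, with none in any input library.

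Counts of ends seen fall with depth, and the top share rises when few reads are drawn. With every gene thinned to 20 counts, the median top share was 70 to 85% in synaptosomes and 70 to 72.5% in input, so the groups no longer separated by that measure. In bulk RNA of this kind, fewer cells or terminals that use an end and fewer copies of it in each cannot be told apart. Genes with 2 to 5 ends had medians of 0.946 to 1 in synaptosomes and 0.894 to 0.898 in input.

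Gene by gene, the mean same-end probability was higher in synaptosomes for 75.4% of the 138 genes, with a median difference of 0.066. Over all 1793 measured genes with 2 or more ends, the share was 69.6% and the median difference 0.022. The probability was higher in every synaptosome than every input library for 30 of the 138 genes (21.7%), against 12.9% of the 1793. It was lower in every synaptosome than every input library for 3 genes (2.17%, against 1.06%). The SD between libraries was larger in synaptosomes for 117 genes (84.8%), with a median SD of 0.145 against 0.0468 in input. The synaptosome side was also the shallower, and the part of depth in this larger SD was not tested.

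**Figure D2:**
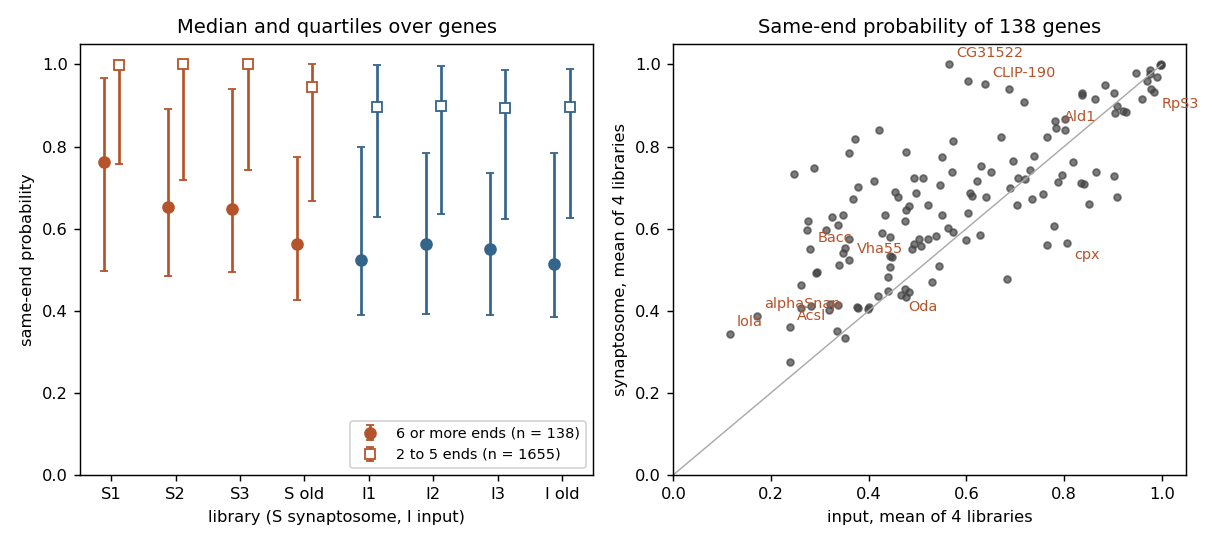
Left, median same-end probability (points) with quartiles over genes (bars) in each library, for 138 genes with 6 or more ends (filled) and 1655 genes with 2 to 5 ends (open), synaptosome in orange and input in blue. Right, mean of 4 input libraries (x axis) against mean of 4 synaptosome libraries (y axis) for each of the 138 genes with the line of equality. Above the line lie 75.4% of these genes, and the share over all 1793 measured genes with 2 or more ends is 69.6%.

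The dominant end was mostly the same in both fractions. It was shared by 110 of the 138 genes (79.7%) and differed in 28, whereas 1533 of 1655 genes with 2 to 5 ends (92.6%) shared it. This has to be read beside the agreement between libraries of 1 group. A pair of input libraries had the same dominant end in 86.5% of the 138 genes on average (82.6 to 92.8% over pairs), a pair of synaptosome libraries in 65.6% (62.3 to 67.4%) and a synaptosome with an input library in 70.0% (63.8 to 76.8%). Synaptosome libraries thus shared their dominant ends with input at least as often as with one another. With genes thinned to 20 counts the averages were 80.1, 63.3 and 67.5%. All 4 input libraries had the same dominant end in 107 genes (77.5%), all 4 synaptosome libraries in 61 (44.2%) and all 8 libraries in 59 (42.8%).

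**Figure D3:**
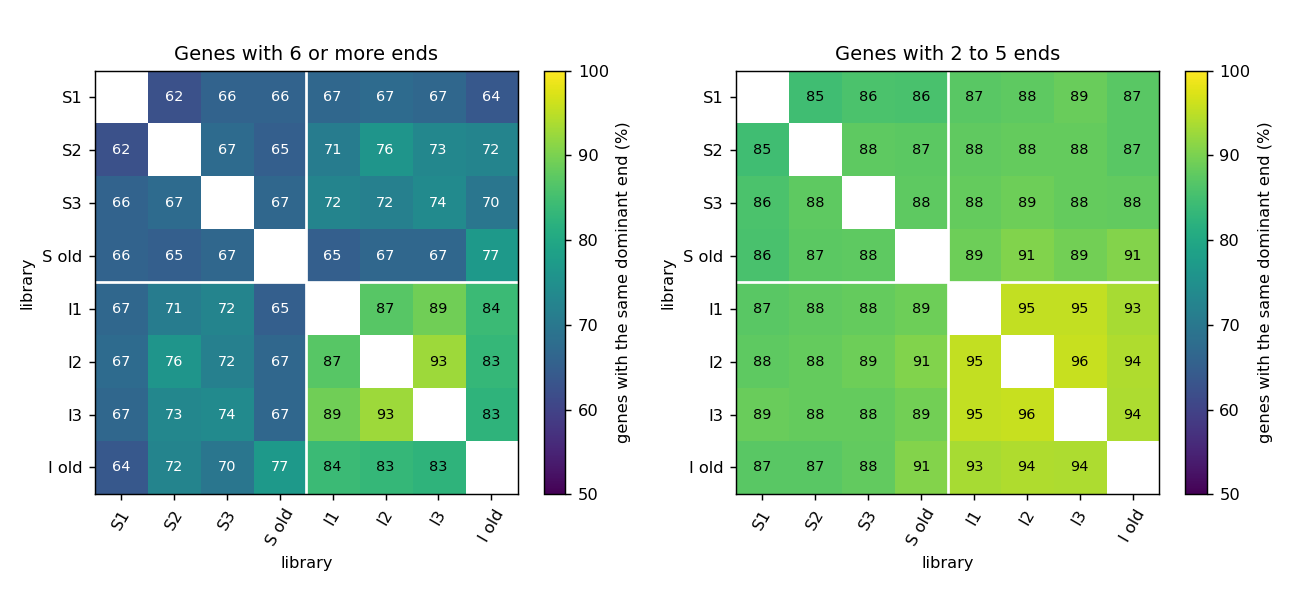
Percentage of genes with the same dominant end for each pair of libraries (S synaptosome, I input), for 138 genes with 6 or more ends (left) and 1655 genes with 2 to 5 ends (right). Pairs of input libraries form the block of highest values in both panels, and in the left panel pairs of synaptosome libraries are at 62.3 to 67.4%.

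Of the 28 genes whose dominant end differed, Vha55 was the only one of the 138 in which all libraries of each group agreed on a different end, and 11 of the 1655 genes with 2 to 5 ends had the same property, a similar share. Vha55 (3R 12623762 to 12627829) encodes subunit B of the vacuolar proton pump, which acidifies synaptic vesicles and other organelles. End 6 held 48.4, 80.2, 55.1 and 79.2% of synaptosome counts and 39.3, 34.7, 34.5 and 35.7% of input counts. End 11 held 27.5, 16.8, 31.7 and 8.5% against 44.3, 37.1, 50.9 and 51.0%. Every synaptosome library was above every input library for end 6 and below for end 11, but the usage test over its ends gave an adjusted p of 0.486, and end 11 by itself had a log2 fold change of −1.72 ± 0.48 with an adjusted p of 0.0557.

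In other genes of this group the lead changed hands within synaptosomes. For Oda, the antizyme that inhibits polyamine synthesis, end 5 held 63.0, 59.3, 59.8 and 48.6% in input and 33.7, 58.7, 55.4 and 20.9% in synaptosomes, where end 13 led in library 1 and in old. CycG (3R 31596642 to 31612664), a cyclin, had end 4 at 70.3, 56.5, 56.2 and 43.6% in input and 20.4, 43.4, 56.0 and 24.2% in synaptosomes, and end 25 ahead in synaptosomes 1, 2 and old and in input old. For Sap47 (3R 15935100 to 15962124), a synapse-associated protein, end 4 held 50.3 to 63.2% in input and 28.7, 26.2, 33.0 and 0% in synaptosomes, so the groups did not overlap, but the usage test by edgeR gave an adjusted p of 0.801. The ends that led in its place were number 24 in libraries 1 and 3 and number 26 in 2 and old.

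eff (3R 14732414 to 14741319), a ubiquitin-conjugating enzyme, had 25.8 to 45.9% of input counts at end 5 and 10.2, 8.9, 0 and 0% of synaptosome counts, without overlap, and end 9 or 8 led in synaptosomes. The adjusted p of its usage test by edgeR was 0.170. For Rtnl1, a reticulon of the endoplasmic reticulum, Ubc7, a ubiquitin-conjugating enzyme of that compartment, Gbeta13F, a G protein beta subunit, and CR42722, the leading synaptosome end led in 3, 2, 3 and 1 of the 4 synaptosome libraries. Over all 28 genes the synaptosome end led in every synaptosome library in 2 and in 3 libraries in 10, and the input end led in every input library in 14. The median gap between both ends was 17.0 percentage points in synaptosomes and 19.9 in input.

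Changes of end usage were tested for each gene with edgeR, by asking whether the log2 fold changes of its tested ends differed from one another. Of 2216 genes with 2 or more tested ends, 3.56% were called at an adjusted p under 0.05. Among the many-ended genes, 183 could be tested and 9 (4.92%) were called, and 38 (20.8%) had an unadjusted p under 0.05 against 16% of all tested genes. The 9 were lola, CLIP-190 and Bacc (adjusted p = 0.00538 each), CG31522 (0.0168), Hsc70-3 (0.0253), Tm1 (0.0419), nrv3 and Pi4KIIalpha (0.0468 each) and Cdc42 (0.0477). In 8 of them, all but nrv3, at least 1 tested end had no count in any synaptosome library and was tested only because of its input counts. Such an end had to be lower, so these 8 calls follow in part from the filter and are given as a description. Leaving out any 1 of the input libraries left 0 genes called, while without synaptosome 1, 2, 3 or old 20, 25, 15 and 51 were called. These were 10.4, 12.9, 7.73 and 26.7% of the many-ended genes tested, against 7.52, 5.97, 3.02 and 17.2% of all tested genes. Over all tested genes, 0 were called without any 1 input library too.

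CLIP-190 (2L 17384700 to 17409698), which binds the plus ends of microtubules, was also called higher as a gene and had 1 leading end in both fractions. End 13 held 94.3, 99.2, 98.5 and 98.3% of synaptosome counts and 86.0, 75.4, 71.3 and 81.8% of input counts, with no overlap. Its other main end, number 16, had 0, 22, 13 and 0 counts in synaptosomes and 273, 493, 753 and 352 in input. The sodium pump subunit gene nrv3 (2L 21380000 to 21393319) had a similar form, with end 1 at 96.8, 96.8, 99.6 and 94.2% in synaptosomes and 77.6, 86.9, 76.3 and 88.0% in input.

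CG31522 (3R 4441415 to 4462883), which belongs to the family of fatty acid elongases, had all of its 328, 90, 47 and 78 synaptosome counts at end 9. In input that end held 61.4, 69.8, 77.8 and 79.6%, end 4 held 85, 81, 84 and 49 counts and 5 further ends were seen. Its gene level did not follow, at 49.4 ± 34.1 CPM in synaptosomes and 53.6 ± 28.3 in input.

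Bacc (2L 2752445 to 2757975) had 6 ends in input and 4 in synaptosomes. Its main end, 18, held 50.2, 34, 47.6 and 45.1% in input and 57.6, 16.7, 81.1 and 55.8% in synaptosomes, which overlapped widely. Ends 13 and 19, with 176, 220, 389 and 136 counts and 74, 128, 111 and 40 counts in input, had none in any synaptosome library. Synaptosomes 2 and 3 held only 30 and 37 counts of the gene.

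Cdc42 (X 19697091 to 19699938), a GTPase of cell polarity, had no synaptosome count at its leading input end. End 8 had 101, 141, 241 and 78 counts in input, 32.5 to 48.7% of the gene, and none in synaptosomes. There end 6 led in libraries 1, 3 and old with 40, 40 and 105 counts and held 16 of 43 counts in library 2, and in input it had 0, 124, 101 and 45. Pi4KIIalpha, a phosphatidylinositol 4-kinase, was called on 51 counts in synaptosome 1 and none in the other synaptosome libraries, all at end 1, where input had 44 to 277 counts at end 4.

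In Hsc70-3 (X 11801696 to 11807117), the chaperone BiP of the endoplasmic reticulum, and Tm1 (3R 15278220 to 15308779), a tropomyosin, the ends without a synaptosome count were minor. End 9 of Hsc70-3 held 94.2 to 99.5% in synaptosomes and 89.7 to 97.1% in input, and ends 7 and 4, without synaptosome counts, made up 1.73 and 0.859% of input. End 10 of Tm1 held 89.3 to 99.6% and 97.2 to 99.3%, and its end 17, at 152, 132, 145 and 44 counts in input and 0 in synaptosomes, was 1.16% of the gene.

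**Figure D4:**
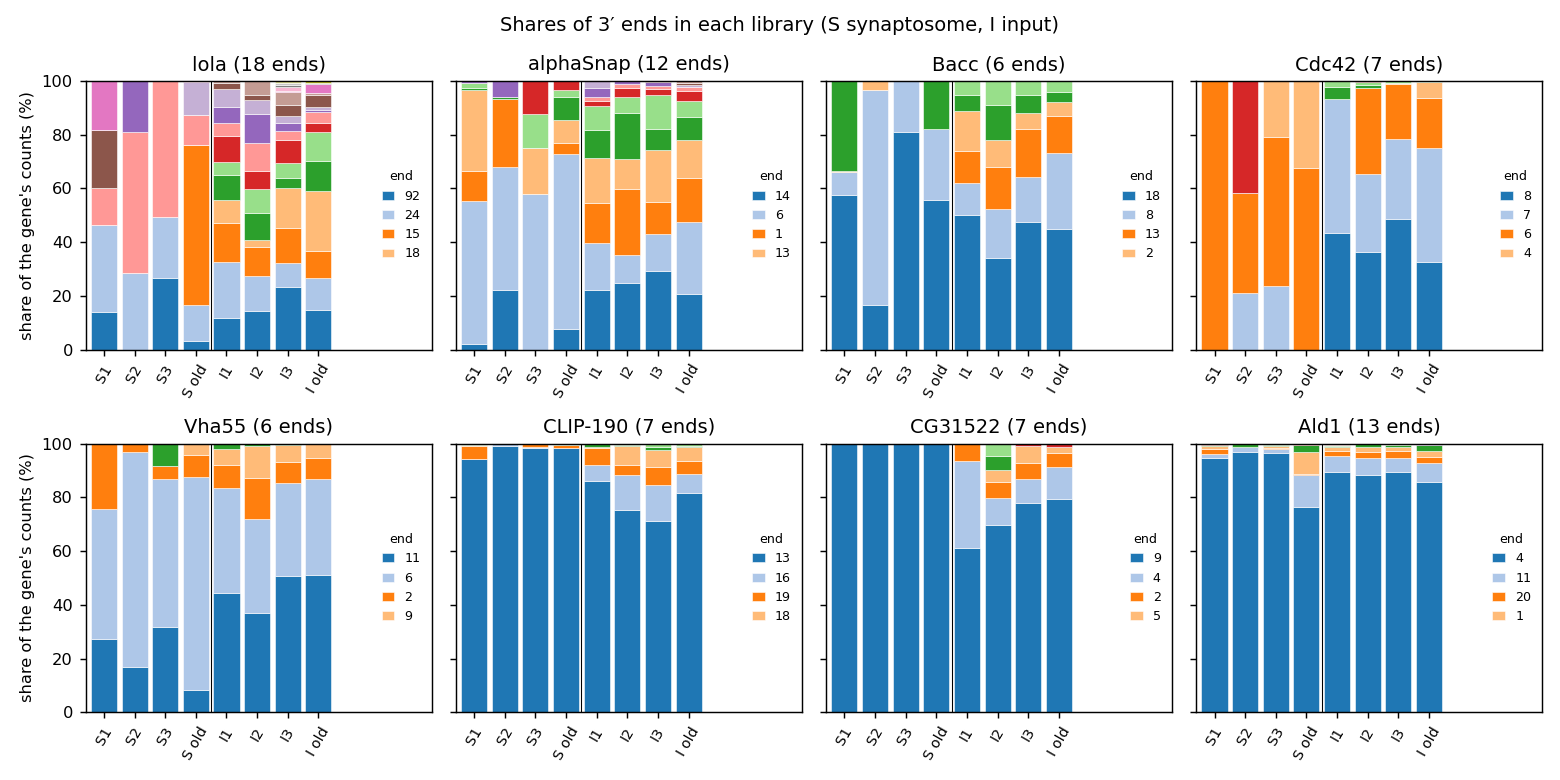
Share of a gene's counts (y axis, %) at each of its 3′ ends in 4 synaptosome (S) and 4 input (I) libraries, for 8 genes. Colours mark ends in order of their mean share in input, and the 4 leading ends are named by number. The single colour of CG31522 in S1 to S old, the missing end 8 of Cdc42 in synaptosomes and the larger end 6 of Vha55 there are the values given in the text.

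Single ends were then compared between the groups, again with edgeR. Of 11062 tested ends, 6.46% were lower in synaptosomes and 0.732% higher. Of the 1573 ends of many-ended genes, 690 had enough counts to be tested, and 56 (8.12%) were lower and 3 (0.435%) higher. The median log2 fold change, synaptosome minus input, was −0.64 for these ends and −0.48 for all tested ends, and with median-of-ratios size factors in place of TMM the median of all ends was −0.32. Of the 56 lower ends, which belonged to 47 genes, 45 were at 0 counts in all 4 synaptosome libraries, 1 had counts in some of them and 10 in every one. An end at 0 in every synaptosome library passed the filter on low counts through input alone and had to differ, so the calls of such ends follow from the filter and are given as a description. The test called 45 of the 46 tested ends of this kind and 14 of the 644 that had a synaptosome count. Adjusted p-values ran from 0.0117 to 0.0429. When synaptosome 1, 2, 3 or old was left out 4, 0, 2 and 169 ends were called, and without input 1, 2, 3 or old 0, 1, 0 and 1. Without a synaptosome library, these were 0.497, 0, 0.248 and 22.0% of tested ends of many-ended genes, against 0.316, 0.00806, 0.0806 and 17.8% of all. Without an input library, 0.0266 to 0.0608% of all tested ends were called.

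For ends without a synaptosome count, only a bound can be given, against a floor of 3 counts per library. The bound was 1.87-fold to 16.1-fold with a median of 4.16. Most were secondary ends, with a median of 8.80% of their gene's input counts. The highest bounds were those of Bacc end 13 (at least 16.1-fold lower), VhaSFD end 4 (at least 15.0-fold), AspRS-m end 3 (at least 10.5-fold), Cdc42 end 8 (at least 9.82-fold), Pi4KIIalpha end 4 (at least 9.54-fold) and Rab2 end 2 (at least 8.84-fold).

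VhaSFD (2L 16722883 to 16727826), subunit H of the vacuolar proton pump, had 188, 208, 224 and 227 input counts at end 4, against 27, 0, 36 and 246 synaptosome counts of the whole gene, all at ends 3 or 1. AspRS-m (2L 16827078 to 16832093), the mitochondrial aspartyl-tRNA synthetase, had 137, 192, 114 and 129 input counts at end 3 and 68, 0, 0 and 8 synaptosome counts in all, each at end 10. For Rab2, a small GTPase of Golgi traffic, end 2 had 194, 64, 147 and 78 input counts, and the gene had 58, 5, 2 and 162 counts in synaptosomes. These 3 genes were themselves sparse in synaptosomes, unlike Tm1 and Hsc70-3 above.

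The lower ends with synaptosome counts in every library were mostly the main end of an abundant mRNA. RpS3 end 0 (3R 23358812 to 23360207), a ribosomal protein, had 2013, 394, 481 and 2490 counts in synaptosomes and 16751, 15923, 23419 and 40212 in input, a log2 fold change of −2.67 ± 0.36 (approximate SE, adjusted p = 0.0117). Mlc2 ends 0 and 3 (3R 30171438 to 30174551), from the regulatory light chain of muscle myosin, changed by −2.69 ± 0.60 and −3.03 ± 0.68. cpx end 25 (3R 4280221 to 4304604), from complexin, the clamp of SNARE-driven vesicle release, had 179, 22, 31 and 168 counts against 2036, 1001, 3028 and 870 and changed by −2.76 ± 0.56 (adjusted p = 0.039 for all 3 ends).

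The others included ends of 14-3-3zeta, ATPsyndelta and Atpalpha, an adaptor and subunits of the ATP synthase and of the sodium pump, of Rm62, an RNA helicase, and of Cyp1, a cyclophilin, with log2 fold changes of −1.57 (Cyp1 end 6) to −3.16 (14-3-3zeta end 9). Ric end 12, from a Ras-like GTPase, had 371, 343, 454 and 145 counts in input and 4 counts in synaptosome old alone.

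The 3 ends that rose came from 2 genes. CLIP-190 end 13 had 6218, 2791, 3434 and 12863 counts in synaptosomes and 3826, 2910, 3992 and 4083 in input, and relative to the library totals its log2 fold change was 2.39 ± 0.35 (adjusted p = 0.018). Rab32, a GTPase of the biogenesis of pigment granules and other lysosome-related organelles, rose at end 9 by 1.62 ± 0.39 and at end 5 by 2.75 ± 0.63 (adjusted p = 0.039 for both). Its end 5 had 737, 113, 185 and 260 counts in synaptosomes and 134, 75, 228 and 235 in input. In Rab32 both ends rose together and end 9 kept 80.7 ± 5.34% of synaptosome and 85 ± 1.71% of input counts, and the usage test gave an adjusted p of 0.794.

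**Figure D5:**
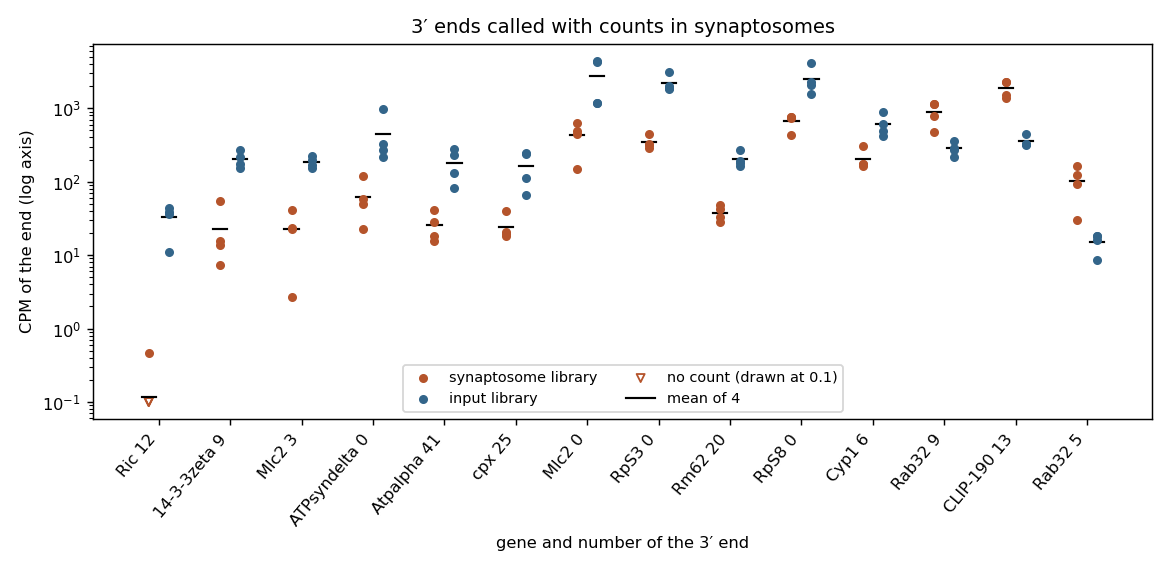
CPM (log axis) of the 14 ends called between the groups that had a count in some synaptosome library, ordered by log2 fold change, with synaptosome libraries in orange, input libraries in blue, open triangles for libraries without a count (drawn at 0.1) and bars for the mean of 4. The 3 ends at the right, Rab32 9, CLIP-190 13 and Rab32 5, are higher in synaptosomes and the other 11 lower.

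Summed over their ends, the many-ended genes changed about as often as other genes. Of 8159 tested genes, 4.13% were lower and 0.944% higher in synaptosomes by edgeR, and of the 219 tested many-ended genes 10 (4.57%) were lower and 2 (0.913%) higher. The median log2 fold change was −0.47 for these genes and −0.35 for all tested genes, or −0.26 for all with median-of-ratios size factors. CLIP-190 rose from 424 ± 57.3 to 2000 ± 536 CPM (log2 fold change 2.24, adjusted p = 0.0201) and Rab32 from 317 ± 60.5 to 1156 ± 438 (1.87, adjusted p = 0.049), and for both genes every synaptosome library was above every input library. RpS3 fell from 2083 ± 568 to 375 ± 78.3 CPM (−2.47, adjusted p = 0.0141), Mlc2 from 2852 ± 1738 to 523 ± 231 (−2.45) and cpx from 174 ± 91.4 to 40.3 ± 12.7 (−2.11, adjusted p = 0.049 for both). The groups did not overlap for any of these 3 genes, nor for Ric, with 0, 0, 0 and 0.469 CPM against 44.5, 40.5, 35.7 and 11.1. Mlc2 is also 1 of the 5 muscle markers. The remaining lower genes included Sap47, Mob2, 14-3-3zeta, Rm62 and Cyp1. Without synaptosome 1, 2, 3 or old 3, 0, 0 and 25 genes were called, and without input 1, 2, 3 or old 0, 1, 0 and 1. Without a synaptosome library, these were 1.36, 0, 0 and 11.4% of tested many-ended genes, against 0.371, 0.0231, 0.0462 and 13.7% of all. Without an input library, 0.0118 to 0.144% of all tested genes were called.

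Detection itself differed with the number of ends. Of the 751 ends of many-ended genes seen in all 4 input libraries, 114 (15.2%) had no synaptosome count, against 11% for genes with 2 to 5 ends and 8.09% for single ends. Ends seen in all 8 libraries numbered 228 (14.5%, against 19.0 and 24.9%), and those with no count in any library 158. No end was seen in all 4 synaptosome libraries and in no input library. At ends that were seen, the median count was 28 to 82 in a synaptosome library and 51 to 66 in an input library. Over all ends of the series it was higher, at 33 to 121 and 86 to 100. The part of this lower depth per end in the detection differences was not tested.

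The lists of genes by function were compared with the table as a whole, in which 2.06% of genes had 6 or more ends. The lists were partial, and some many-ended genes were missing from the list of their function. Among the missing were other subunits of the vacuolar proton pump, ATPsyndelta, alphaSnap and several ribosomal protein genes named above. The shares below therefore describe the lists and do not rank whole functional classes. Energy metabolism and ion pumps held the largest share of many-ended genes among the lists examined, 12 of the 49 on that list in the table (24.5%), with Ald1, nrv3, Gapdh2 and Atpalpha among them and 4 further subunits of the vacuolar proton pump beside Vha55. RNA-binding proteins followed with 10 of 56 (17.9%, such as gw, Rm62, tral and ps), then kinases, phosphatases and other signalling genes with 10 of 65 (15.4%, such as Galphaq, Gbeta13F, Cdc42 and CkIIbeta) and synaptic vesicle and active zone genes with 6 of 43 (14%, such as Sap47, unc-13, dlg1 and cpx). Translation and the ribosome had 5 of 47 (10.6%, such as RpL10, RpL30 and Tctp), transcription and chromatin 5 of 85 (5.88%, such as Pdp1, lola, mod(mdg4) and emc) and the cytoskeleton 4 of 75 (5.33%: Tm1, Act5C, chic and Mlc1). None of the 54 genes in the table from the list of ion channels and transmitter receptors had 6 or more ends. The same held for the 14 from the list of cleavage and polyadenylation factors.

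Ribosomal and translation genes were the most concentrated list, with a median same-end probability of 0.970 in input and 0.934 in synaptosomes over 5 genes. In the other lists the synaptosome median was above the input median, at 0.608 and 0.688 for energy metabolism (9 genes), 0.434 and 0.565 for synaptic vesicles (5), 0.408 and 0.665 for RNA-binding proteins (6), 0.407 and 0.619 for the cytoskeleton (4), 0.378 and 0.655 for kinases (5) and 0.271 and 0.466 for transcription (2), beside 0.545 in input over all 138 genes, and the lists rest on few genes. By the gene test, 2 of the 6 synaptic vesicle genes (Sap47 and cpx), 2 of the 5 translation genes (RpS3 among them) and 1 of the 10 RNA-binding genes (Rm62) fell, and no gene on these lists rose. Over all tested genes, 4.13% fell and 0.944% rose. By the usage test, 1 gene was called on each of the lists of energy metabolism (nrv3, of 12 tested), kinases (Cdc42, of 8), the cytoskeleton (Tm1, of 4) and transcription (lola, of 4). Cdc42, Tm1 and lola had tested ends without a synaptosome count, so their calls are descriptions. Over all genes tested for usage, 3.56% were called.

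Of the genes with a neuronal 3′ UTR that the study lists, 35 of the 261 in the table (13.4%) had 6 or more ends, among them Ald1, nrv3, Tm1 and RpS4. Their median same-end probability was 0.434 in input and 0.633 in synaptosomes over 27 genes. For end usage, 3 of the 31 tested were called (Bacc, Tm1 and nrv3), and 3 of 35 fell as genes. Bacc and Tm1 had tested ends without a synaptosome count. Of the study's targets of the RNA-binding protein Pumilio, 14 of 441 (3.17%) had 6 or more ends, such as Galphaq, slmb, Pdp1 and unc-13. Their medians were 0.476 and 0.737 over 9 genes, 1 of the 11 tested was called for usage (CG31522), and none of the 14 was called in the gene test. In CG31522, 2 of the 3 tested ends had no synaptosome count, so its call, like those of Bacc and Tm1, is a description. For both lists, the shares over all tested genes were 3.56% called for usage, 4.13% lower and 0.944% higher.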

How the data were processed

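Ends of polyadenylated RNA were read with a 3′-seq kit from 4 synaptosome and 4 input libraries of Drosophila melanogaster heads. The authors deposited raw counts per 3′ end and per gene. Per the submitters' processing notes, reads were mapped with STAR 2.6.1b to dm6. Per the study's methods, sites of internal priming were masked and reads were clustered. Its length and expression analyses of synaptosomes then used only clusters near 3′ ends known from long reads or from the Ensembl annotation. A deposited list gives the positions of these known ends. The deposited comparison tables hold a normalized mean, a log2 fold change with its error and p-values for each gene and end, and were not used here. The 4th library of each group named in the labels matched no column, and the columns named old matched no title.

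The counts of every gene equalled the sum of its ends. Members, gene lists and tests were chosen with earlier results of these data known. Ends and genes were tested with edgeR 4.0.16 in R 4.3.3 (filterByExpr, TMM, robust quasi-likelihood fit and test, Benjamini-Hochberg adjustment over all tested, threshold 0.05), and end usage with its diffSpliceDGE gene-level F test. Log2 fold changes are synaptosome minus input, and their SE was approximated as the size of the change divided by the square root of F. CPM used TMM-scaled library sizes. DESeq2 1.42.0 and limma 3.58.1 served as alternatives, and the scripts were tested on simulated counts. Reads carry no molecular identifiers, so floors (3 counts per library) cover counting error only. The labels do not say whether libraries came from separate collections. The p-values therefore cover the variation among the libraries at hand, and this may be technical. Gene positions are 1-based in dm6.

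Named were the 10 genes with the most ends, the 6 with the lowest and the 6 with the highest same-end probability in input, all genes called for end usage, the 6 most raised and 6 most lowered called ends and the 4 most changed called genes in each direction with a mean count of at least 50, the 10 deepest genes whose dominant end differed, and up to 4 examples per list. Other names were chosen after their values were seen.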

Additional observations from a re-analysis of the deposited data

Results flagged for a closer look

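In each of 94 sets of 4 libraries of a group, the highest or lowest value was compared with the others by Dixon's ratio of its gap to the range, at the 95% critical value. For independent normal values, chance alone marks about 1 in 20 such sets, and 12 of the 94 were marked. Where the other values of a set are tied, any differing value is marked, as for RpS25, RpS30 and Ric in synaptosomes. The number marked can therefore not be set against that rate. The marked sets are given as values without an explanation.

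Same-end probability stood apart in 9 sets. In synaptosomes, lola read 0.219 in library 1 against 0.375 to 0.399 in the others, Ald1 0.608 in old against 0.898 to 0.943, Ubc7 0.583 in library 3 against 0.390 to 0.422, RpS25 0.998 in library 3 against 1 and RpS30 0.998 in old against 1. In input, Bacc read 0.208 in library 2 against 0.297 to 0.308, Ubc7 0.603 in library 2 against 0.433 to 0.455, Sap47 0.341 in library 3 against 0.442 to 0.452 and RpL30 0.984 in library 3 against 0.992 to 0.993.

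Levels stood apart in 3 sets. The gene level of Ric was 0.469 CPM in synaptosome old, from 4 counts, and 0 in the other synaptosome libraries. RpS3 was at 2927 CPM in input old against 1731 to 1900 in the other input libraries. End 13 of CLIP-190 was at 452 CPM in input 1 against 312 to 330.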

How the results depend on the processing

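Counts of calls depended on the libraries and filters used. Direction was compared across runs only for the most raised and lowered ends and genes, and for the group difference in median same-end probability. None of these reversed, but the ends and genes had been picked for large changes. Direction was not compared for the other called ends and genes or for end usage. Of the ends of many-ended genes, 59 were called, 60 after median-of-ratios scaling and 62 with a term for the libraries named old, but 13 with no filter on low counts, 24 where ends needed a mean of 50 counts, 13 from libraries thinned to the smallest total, 122 with DESeq2, 130 without both libraries named old and 0 to 169 with 1 library left out. The shares over all tested ends, in the same order, were 7.20, 7.37, 7.71, 0.865, 3.81, 1.84, 7.43, 15.9 and 0.00806 to 17.8%. Of the genes, 12 were called, and 5, 4, 7 and 23 with no filter, a mean of 50 counts, thinned libraries and DESeq2, 6 with the term for old and 0 to 25 with 1 library left out. The shares over all tested genes, in the same order, were 5.07, 0.974, 1.29, 2.09, 8.31, 1.16 and 0.0118 to 13.7%. For end usage 9 genes were called, and 3 at a mean of 50 counts, 0 from thinned libraries, 5 with the term for old, 25 without both libraries named old, 0 with Simes p-values of the ends, 8 with limma and 0 to 51 with 1 library left out. At an unadjusted p under 0.05, the counts were 119 ends, 33 genes and 38 genes for usage with all libraries. The causes were not tested.

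The main tests did not take the library numbers as pairs. Per the study's methods, input was sampled from the homogenate that was then fractionated, so same-numbered libraries may share a preparation. Same-numbered synaptosome and input libraries did not deviate together (correlations of 0.00255, 0.0394 and −0.0179), but this cannot show that they are unpaired. The synaptosome and input libraries named old had a correlation of 0.25, the highest of all between the groups. With the replicate block on libraries 1 to 3, 27 ends, 11 genes and 0 genes for usage were called, against 130, 18 and 25 on the same libraries without it. With the pair named old as another block, an alternative chosen after seeing the data, 29, 6 and 3 were called. Over all tested, the shares were 3.15, 2.85 and 0% with the block on libraries 1 to 3 and 15.9, 7.86 and 9.10% without it. With the pair named old as another block they were 3.42, 1.43 and 0.181%.

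The difference between the groups in median same-end probability stayed between 0.0663 and 0.152, and 75.2 to 82.3% of genes shared the dominant end, over the alternatives run, but the libraries of the groups overlapped with thinning to 20 counts, at least 50 counts per library or 8 or more ends. The input median of 0.538 became 0.586 with at least 50 counts per library and 0.487 with 8 or more ends, and the share at the dominant end of a library, as another measure, was 0.790 in synaptosomes and 0.691 in input. Depth limits the synaptosome side: the floor of 3 counts averaged 1.36 CPM there, and 82 of 220 genes had under 20 counts in some library.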
